A study of Homo sapiens with 6 samples.

Results

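The activator protein 1 (AP-1) genes and the immediate-early genes related to them were examined in MCF10A cells depleted of PAX9. The members were 10 transcription factor genes taken by exact symbol from the deposited table, which held 26822 distinct symbols in all. They were FOS, FOSB, FOSL1 and FOSL2 of the FOS family, JUN, JUNB and JUND of the JUN family, the zinc finger gene EGR1, and BATF and BATF3 of the BATF family. Where a symbol had several rows, the row with the highest mean value was kept, which concerned FOSL1 alone. MCF10A is an established line of breast epithelial cells that is not tumorigenic. Cells transfected with a non-targeting siRNA (siNT) were compared with cells transfected with siRNAs against PAX9 (siPAX9), at 30 nM siRNA for 72 hours in each group, with 3 samples per group. Both groups were kept in the same medium, which holds horse serum, epidermal growth factor, hydrocortisone, cholera toxin and insulin. The values therefore describe cells in steady medium at 72 hours and not a timed response to a stimulus, and growth is not measured by them.

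AP-1 is a dimer of leucine zipper proteins. JUN proteins pair with one another or with FOS proteins, while FOS proteins need a JUN partner to bind DNA. FOS, FOSB, JUN, JUNB and EGR1 are known as immediate-early genes, because growth factors and serum switch them on within minutes without new protein synthesis, through kinases of the ERK, JNK and p38 cascades. FOSL1 and FOSL2 are induced later and last longer, and JUND is present in many resting cells. In stratified epithelia, AP-1 sites control genes of keratinocyte differentiation such as IVL, and EGR1 takes part in the response of epithelial cells to growth factors.

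All values are FPKM, a read density that corrects for transcript length and for library size, with 1 value per locus and group. The 3 samples of a group had been combined before deposit. No spread between samples can therefore be computed, no test was run, and every difference below lacks a replicate check. Read depth is unknown from the table, and nothing states that the samples were separate cultures. The siRNA knockdown is transient. A gene was compared when the larger of its values reached 1 FPKM and both were above 0, which held for 13492 symbols, and another 130 symbols that met the minimum were listed at 0 in 1 group and have no ratio. The median log2 ratio of siPAX9 to siNT over the compared symbols was -0.07. PAX9 itself measured 2.80 FPKM in siNT and 0.325 in siPAX9, 8.60-fold lower (log2 ratio -3.10, and -1.52 with 1 added to each value). It passed the minimum only through siNT. Its locus is listed with the same span as SLC25A21, at 0.861 and 0.487. The labelled cell type was checked against its markers, and all 8 epithelial markers were above the minimum, with KRT5 at 1558 and 1807 and KRT17 at 1718 and 2088 in siNT and siPAX9. CDH1 was at 45.3 and 124.4, and EPCAM at 34.3 and 16.7. All 10 blood cell markers were below the minimum. Of the 6 fibroblast markers, DCN measured 5.85 FPKM in siNT and 37.9 in siPAX9 and COL1A1 0.454 and 4.13, while PDGFRA, PDGFRB, COL3A1 and LUM were below the minimum. The 6 summed to 6.40 in siNT and 42.2 in siPAX9, and their part in the results was not tested. Of the 4 endothelial markers, PECAM1 measured 2.58 FPKM and 0.495 and KDR 0.798 and 1.94, and CDH5 and TEK were below the minimum. In bulk RNA, fewer cells that express a gene and less RNA per cell cannot be told apart.

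The sequence before the transcription start is shown for the 5 genes on which the results turn most. FOS and EGR1 were lower in siPAX9, and FOSL2, JUN and JUND were higher. Each run gives the 250 bases before the start of the RefSeq transcript on GRCh38.p14, a later build than the hg19 build of the expression table, and only names were matched between them. The positions are chr14:75278578-75278827, plus strand (FOS), chr5:138465229-138465478, plus strand (EGR1), chr2:28392608-28392857, plus strand (FOSL2), chr1:58784048-58784297, minus strand (JUN) and chr19:18281623-18281872, minus strand (JUND). Capitals mark matches, on either strand, to TGACNTCA, which covers the cyclic AMP response element (CRE) TGACGTCA and the variant TGACATCA found in JUN. They also mark the short form of the CRE, TGACGT, which overlaps it, and the CArG box bound by serum response factor.
FOS upstream: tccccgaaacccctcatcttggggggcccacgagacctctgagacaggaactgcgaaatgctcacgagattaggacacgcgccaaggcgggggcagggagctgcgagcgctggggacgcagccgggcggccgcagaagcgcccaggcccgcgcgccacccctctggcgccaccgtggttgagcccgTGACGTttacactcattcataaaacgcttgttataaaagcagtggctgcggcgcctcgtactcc
EGR1 upstream: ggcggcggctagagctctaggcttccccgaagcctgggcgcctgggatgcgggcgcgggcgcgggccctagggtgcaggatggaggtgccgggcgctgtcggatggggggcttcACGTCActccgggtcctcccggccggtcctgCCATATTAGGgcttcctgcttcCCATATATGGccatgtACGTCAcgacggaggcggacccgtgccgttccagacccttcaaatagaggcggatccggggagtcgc
FOSL2 upstream: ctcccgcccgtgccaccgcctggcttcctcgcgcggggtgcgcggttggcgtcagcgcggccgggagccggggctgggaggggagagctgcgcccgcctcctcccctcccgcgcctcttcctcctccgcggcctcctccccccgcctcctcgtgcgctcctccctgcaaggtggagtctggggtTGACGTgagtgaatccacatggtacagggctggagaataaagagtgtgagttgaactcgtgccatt
JUN upstream: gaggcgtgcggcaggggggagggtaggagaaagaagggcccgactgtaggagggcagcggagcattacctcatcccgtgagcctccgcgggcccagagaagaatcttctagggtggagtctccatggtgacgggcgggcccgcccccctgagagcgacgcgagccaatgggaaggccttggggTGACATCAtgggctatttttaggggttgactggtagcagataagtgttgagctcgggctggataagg
JUND upstream: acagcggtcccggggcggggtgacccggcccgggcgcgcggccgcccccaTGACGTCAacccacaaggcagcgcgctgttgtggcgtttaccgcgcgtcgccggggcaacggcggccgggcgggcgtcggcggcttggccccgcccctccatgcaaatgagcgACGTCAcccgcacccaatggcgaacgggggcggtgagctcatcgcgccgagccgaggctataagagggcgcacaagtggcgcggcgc

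Upstream sequences were found for 8 of the 10 genes, and FOSL1 and BATF3 had none in the table. The short form TGACGT was present in 5 of the 8, namely FOS, FOSB, FOSL2, JUND and EGR1, against 7.42% of the 27305 upstream sequences of the same length. These 5 sequences held between 64.8% (FOS) and 74.8% (JUND) G and C, against a median of 58% over all upstream sequences. Whether this share explains the matches was not tested. TGACGT lay 64 to 59 bases before the start in FOS, 60 to 55 in FOSB, 66 to 61 in FOSL2 and 67 to 62 in EGR1, where a further match lay 136 to 131 bases before it. The octamer TGACATCA of JUN lay in the same stretch, 67 to 60 bases before the start. The genes with a match to TGACGT or TGACATCA at this distance were thus found both among those lower in siPAX9, FOS and EGR1, and among those higher, FOSL2 and JUN. In JUND the full TGACGTCA lay 200 to 193 bases before the start and a match to the short form 87 to 82. TGACNTCA was held by 2 of the 8 genes, JUN and JUND, against 7.09% of all upstream sequences. Only EGR1 held CArG boxes, 105 to 96 and 83 to 74 bases before the start, against 1.14% of all upstream sequences with at least 1. Boxes farther than 250 bases before a start, in FOS or any other gene, were not searched.

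The AP-1 sequence in its exact form TGACTCA (4.16% of all upstream sequences) and the EGR sequence GCGGGGGCG (4.68%) were in none of the 8. Variants such as TGACATCA are not counted here. The PAX9 sites GCGTGACCA (0.136%) and GCGGAACGG (0.201%) were in none of the 8 either. JUNB and BATF had no match to any of these sequences. A match describes letters in this window and does not show binding.

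Of the 10 genes, 8 were compared. FOSB stayed under the minimum in both groups and BATF was listed at 0 in both. BATF3 passed only through siNT, where it was the higher. In siPAX9, 5 of the 8 were lower (FOS, FOSL1, JUNB, EGR1 and BATF3) and 3 were higher (FOSL2, JUN and JUND), as the plot of FPKM by gene shows.

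**Figure D1:**
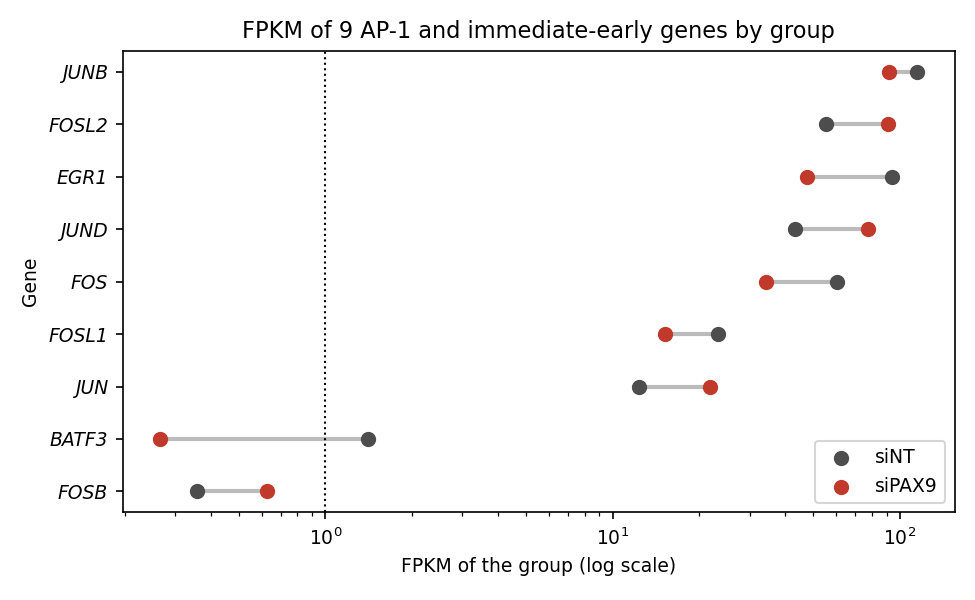
FPKM (log axis) of each gene in siNT (grey) and siPAX9 (red), ordered by mean FPKM, with a dotted line at the minimum of 1. JUNB leads in both groups, siPAX9 lies to the left of siNT for FOS, FOSL1, JUNB, EGR1 and BATF3 and to the right for FOSB, FOSL2, JUN and JUND, and BATF, listed at 0, is not drawn.

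By level, FPKM in siNT ran from JUNB through EGR1, FOS, FOSL2, JUND, FOSL1, JUN and BATF3 to FOSB. In siPAX9 the order was JUNB, FOSL2, JUND, EGR1, FOS, JUN, FOSL1, FOSB and BATF3. FOSL2 moved from rank 4 to rank 2 and JUND from rank 5 to rank 3, while EGR1 moved from rank 2 to rank 4 and FOS from rank 3 to rank 5. JUNB and FOSL2 stood close in siPAX9, at 91.6 and 90.9, and so did FOS and FOSL2 in siNT, at 60.6 and 55.4. Without a spread between samples, neighbours in these orders cannot be separated.

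FOS encodes the founding member of its family and was at locus chr14:75745481-75748937 of hg19. Its FPKM was 60.6 in siNT and 34.3 in siPAX9, 1.77-fold lower (log2 ratio -0.82). Among the compared genes it lay at percentile 90.1 in siNT and 83.4 in siPAX9. FOSL1, which encodes FRA-1, was at chr11:65657424-65667997, and measured 23.3 FPKM in siNT and 15.3 in siPAX9, 1.53-fold lower (log2 ratio -0.61), which fell short of 1.5-fold with 1 added to each value (-0.58), after centring on the median of all genes (-0.54) or with its rows summed (-0.54).

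The FOSL1 value has a limit in how the table divides its locus. A second FOSL1 row with the same coordinates measured 1.63 FPKM in siNT and 1.86 in siPAX9. CCDC85B was listed with those coordinates too, at 23.8 and 15.9, a log2 ratio of -0.58. CCDC85B thus had nearly the level and the ratio of FOSL1 in both groups. The kit and the counting are not stated to use strand, and how reads were divided between these rows is not given in the sources used here.

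FOSL2, which encodes FRA-2, stood apart from FOS and FOSL1 in direction. At chr2:28607276-28652427 its FPKM was 55.4 in siNT and 90.9 in siPAX9, 1.64-fold higher (log2 ratio 0.71). FOSB was scarcely detected at chr19:45971253-45978437. Its FPKM was 0.357 in siNT and 0.628 in siPAX9. Both values are under the minimum, and the log2 ratio of 0.82 became 0.26 with 1 added to each FPKM.

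Summed over the FOS family, FPKM was 139.6 in siNT and 141.0 in siPAX9, a ratio of 1.01. The composition of that sum differed between the groups. FOS made up 43.4% of it in siNT and 24.3% in siPAX9, FOSL1 16.7% and 10.8%, and FOSL2 39.7% and 64.4%. FOSB made up under 1% in each. The ratio of FOSL2 to FOS was 0.914 in siNT and 2.65 in siPAX9, 2.90-fold higher, and that of FOSL2 to FOSL1 was 2.38 and 5.96, 2.50-fold higher. FOS and FOSL1 differed little relative to each other, with a ratio of 2.60 in siNT and 2.25 in siPAX9. These ratios are taken within a group and do not depend on how the libraries were scaled to each other.

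JUN, the founding member of the JUN family and a chief target of JNK, was at chr1:59246463-59249785. Its FPKM was 12.4 in siNT and 21.8 in siPAX9, 1.76-fold higher (log2 ratio 0.82). JUND, which is often found in cells that do not divide, was at chr19:18390504-18392466. Its FPKM was 43.0 in siNT and 77.6 in siPAX9, 1.80-fold higher (log2 ratio 0.85), which was the largest increase among the compared members. The miRNA gene MIR3188 lies within 1 kb of the JUND locus, at chr19:18392887-18392971, and was listed at 91.9 in siNT and at 0 in siPAX9. That row is very short, the libraries were poly(A)+ and read counts are not given, so few reads could set its FPKM. What its values measure was not tested. JUNB, which can restrain JUN activity, was at chr19:12902310-12904125, and measured 114.8 FPKM in siNT and 91.6 in siPAX9, 1.25-fold lower (log2 ratio -0.32).

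JUNB was the most abundant of the 10 genes in both groups, at percentiles 95.2 and 94.6 of the compared genes, and it was the single compared member that differed by less than 1.5-fold. Summed over the JUN family, FPKM was 170.2 in siNT and 191.1 in siPAX9, a ratio of 1.12. JUNB made up 67.4% of it in siNT and 48.0% in siPAX9, JUND 25.3% and 40.6%, and JUN 7.27% and 11.4%. The ratio of JUND to JUNB was 0.375 in siNT and 0.847 in siPAX9, 2.26-fold higher, and that of JUN to JUNB was 0.108 and 0.238, 2.21-fold higher. JUND to JUN stayed near 3.5, with 3.48 in siNT and 3.56 in siPAX9. The FOS family sum was 0.820 of the JUN family sum in siNT and 0.738 in siPAX9.

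**Figure D2:**
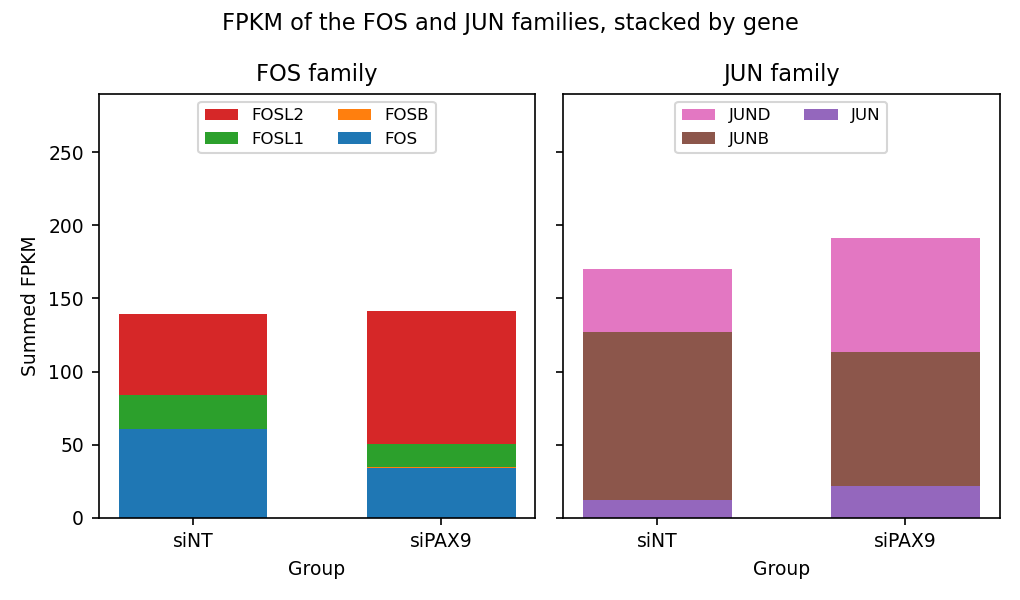
Summed FPKM (linear axis from 0) of the FOS family and of the JUN family in siNT and siPAX9, stacked by gene. The FOS family totals are 139.6 and 141.0 with a larger FOSL2 segment in siPAX9, and the JUN family totals are 170.2 and 191.1 with larger JUND and JUN segments in siPAX9.

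EGR1, a zinc finger factor induced by serum and growth factors, was at chr5:137801181-137805004. Its FPKM was 93.8 in siNT and 47.5 in siPAX9, 1.98-fold lower (log2 ratio -0.98), just short of 2-fold. It was the second most abundant of the 10 genes in siNT and the fourth in siPAX9. EGR1 and FOS were lower by similar factors, so that EGR1 to FOS was 1.55 in siNT and 1.38 in siPAX9. EGR1 to JUNB was 0.817 and 0.518, 1.58-fold lower.

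BATF and BATF3 are AP-1 partners best known from lymphocytes and dendritic cells. BATF, at chr14:75988784-76013334, was listed at 0 in both groups. BATF3, at chr1:212859759-212873327, measured 1.41 FPKM in siNT and 0.267 in siPAX9, 5.27-fold lower (log2 ratio -2.40). Both values are low, at percentiles 8.64 and 0.215 of the compared genes, and with 1 added to each FPKM the log2 ratio was -0.93. The blood cell markers summed to 0.0609 in siNT and 0.175 in siPAX9, with PTPRC, which encodes CD45, at 0.0166 and 0.0922, and with CD3E, CD4 and XCR1 at 0 in both.

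At the 2-fold limit, 1 of the 8 compared genes was lower, BATF3, against 6.89% of all compared genes, and 0 were higher, against 7.26%. At 1.5-fold, 4 of the 8 were lower (FOS, FOSL1, EGR1 and BATF3), against 16.8% of all compared genes, and 3 were higher (FOSL2, JUN and JUND), against 14.3%. Among genes whose larger value reached 10 FPKM, which leaves out BATF3, 3 of 7 were at least 1.5-fold lower, against 17.9%, and 3 of 7 higher, against 9.79%. The members' ratios ran both ways, and their median log2 ratio was -0.47 over 8 genes and -0.32 without BATF3. The median size of the log2 ratio, whatever its sign, was 0.82 with or without BATF3, and 0.36 over all compared genes. Among the log2 ratios of all compared genes, EGR1 lay at percentile 7.12 and FOS at 9.78, and FOSL2, JUN and JUND lay between percentiles 88.6 and 90.9.

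**Figure D3:**
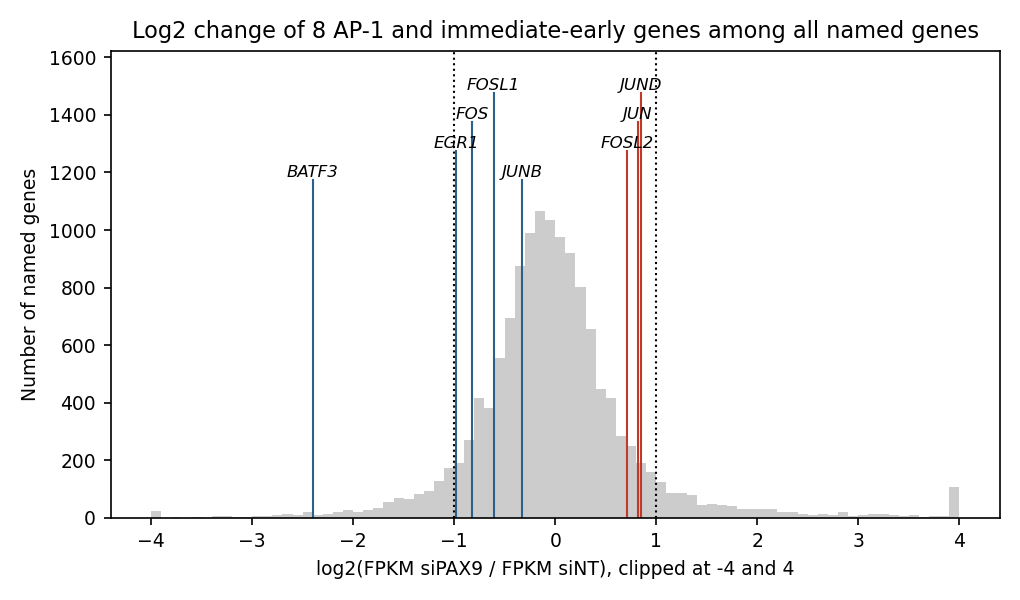
Number of named genes by log2 ratio of FPKM in siPAX9 to siNT, in bins of 0.1, with the 8 compared AP-1 and immediate-early genes as lines (blue lower, red higher in siPAX9) and dotted lines at 2-fold. BATF3 alone lies beyond a dotted line, and EGR1 at -0.98 lies next to one.

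The genes share a compact structure that the choice of members did not use. In the GENCODE annotation placed on GRCh37, which has the coordinates of hg19, JUN, JUNB and JUND each have 1 exon in their canonical transcript, EGR1 has 2, BATF and BATF3 have 3, and FOS, FOSB, FOSL1 and FOSL2 have 4. All 10 therefore have 4 exons or fewer, against 20.3% of the 11248 compared protein-coding genes with an annotated 3' untranslated region, whose median is 9. Canonical transcripts ran from 836 bases for BATF3 to 6713 for FOSL2. FOSL2 stood out by its 3' untranslated region (3' UTR) of 4869 bases, beside 806 for FOS and 837 for FOSL1. All 10 genes overlapped the locus given in the table.

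Many immediate-early mRNAs are short-lived and carry AU-rich elements in the 3' UTR. The heptamer TATTTAT was present in the 3' UTR of 6 of the 10 genes, against 36.0% of the 11248 compared genes with an annotated 3' UTR. FOS and FOSL2 held 2 copies each, and FOSB, FOSL1, JUN and JUND held 1 each. JUNB, EGR1, BATF and BATF3 held none. Per kilobase of 3' UTR, FOS had 2.48 copies, JUND 1.34, FOSL1 1.19 and FOSL2 0.411. The heptamer was thus found in genes lower in siPAX9 (FOS and FOSL1) and in genes higher (FOSL2, JUN and JUND).

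The lists of related genes were read beside the members, with the same minimum of 1 FPKM and the same 2-fold limit. Other leucine zipper genes that can pair with AP-1 proteins, the ATF, CREB, MAF and CNC genes, numbered 24, of which 20 were compared. CREB5 (2.58 in siNT and 0.795 in siPAX9), ATF4 (404 and 157) and NFE2 (2.99 and 1.33) were at least 2-fold lower. That is 15% of the 20, against 6.89% of all compared genes. At least 2-fold higher were 5%, against 7.26%. The median log2 ratio of the 20 was -0.12. ATF3, an immediate-early partner of JUN, measured 1.86 FPKM in siNT and 3.15 in siPAX9. JDP2, a repressive partner of JUN, had 4.06 and 2.23.

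Of 31 other immediate-early genes, 25 were compared, and their median log2 ratio was 0.11. CTGF (1.54 in siNT and 3.72 in siPAX9) and PLK2 (15.9 and 41.0) were at least 2-fold higher. RHOB (46.7 and 7.96), SGK1 (62.4 and 22.6), NR4A1 (1.13 and 0.453), NR4A2 (2.24 and 0.955) and MCL1 (310.1 and 147.9, in a row that names another gene too) were at least 2-fold lower. The 2-fold shares were 8% higher and 20% lower, against 7.26% and 6.89% of all compared genes. EGR2, EGR3 and EGR4, the paralogs of EGR1, were all under the minimum, with values from 0.148 to 0.804. MYC, which measured 394 FPKM in siNT and 248 in siPAX9, was 1.59-fold lower. At 1.5-fold, 7 of the 25 were higher and 8 lower, against 14.3% and 16.8% of all compared genes.

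The inputs of the ERK cascade, which induces FOS and EGR1 through ELK factors and SRF, comprised 21 genes, all compared, with a median log2 ratio of -0.17. ELK1, which binds next to SRF on the FOS and EGR1 promoters, was 2.14-fold lower, at 22.4 in siNT and 10.5 in siPAX9. It was the only gene of the 21 at least 2-fold lower (4.76%, against 6.89% of all compared genes). None was 2-fold higher, against 7.26%. SRF measured 15.3 FPKM in siNT and 9.25 in siPAX9, 1.65-fold lower, and ELK3 39.7 and 23.3. The kinase gene MAPK3 measured 8.52 FPKM in siNT and 7.53 in siPAX9, 1.13-fold lower. Of the 21 inputs of the JNK and p38 cascades, 18 were compared, with a median of -0.21. MAP2K6, an activator of p38, was lower, at 1.88 in siNT and 0.323 in siPAX9. It was the only gene of the 18 at least 2-fold lower (5.56%, against 6.89% of all compared genes). None was 2-fold higher, against 7.26%. The JNK genes MAPK8 (7.49 and 5.45) and MAPK9 (23.1 and 18.9) were 1.37-fold and 1.22-fold lower. Kinase activity was not measured.

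Of 18 feedback genes of MAP kinase signalling, 17 were compared, with a median log2 ratio of -0.32. SPRY4 (13.1 in siNT and 4.75 in siPAX9), an inhibitor of receptor signalling induced by ERK, was 2-fold lower, and DUSP8 (0.0386 and 1.23), a phosphatase of JNK and p38, was higher and passed the minimum only through siPAX9. Each was the only gene of the 17 past 2-fold in its direction (5.88%). Of all compared genes, 6.89% were lower and 7.26% higher. SPRY4 shares its row with SPRY4-IT1. DUSP6, a phosphatase of ERK that ERK itself induces, measured 59.2 FPKM in siNT and 30.2 in siPAX9, 1.96-fold lower, close to the factor for EGR1. Of the 10 genes of JUN turnover and cofactors, all compared, 0 were 2-fold lower and 0 were 2-fold higher, with a median of 0.04. The shares of all compared genes were 6.89% and 7.26%. FBXW7, part of a ligase that targets JUN for degradation, had the largest ratio, with 13.3 and 25.2.

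AP-1 target genes of matrix and signalling numbered 20, of which 15 were compared, with a median log2 ratio of 0.11. PLAUR, the urokinase receptor gene (4.28 in siNT and 19.8 in siPAX9), and HMOX1 (0.841 and 2.51) were at least 2-fold higher (13.3%, against 7.26% of all compared genes). IL6 (3.61 and 0.220) was lower (6.67%, against 6.89%). At 1.5-fold, 6 of the 15 were higher and 6 lower, beside 14.3% and 16.8% of all compared genes. Of 12 AP-1 target genes of keratinocyte differentiation, 9 were compared, and 8 of the 9 were at least 2-fold higher. Of these, SPRR2A (0.211 and 52.1), IVL (0.0910 and 15.8), SPRR1A (0.532 and 56.4) and KRT1 (0.0120 and 1.09) passed the minimum only through siPAX9, so that they had to differ. The median log2 ratio of the 9 was 6.51, which is the ratio of KRT1. SPRR1B (3.18 and 333.9), KRT10 (21.0 and 148.1), TGM1 (10.6 and 53.6) and CSTA (149.5 and 390.8) reached the minimum in both groups, and with S100A9 their median was 2.34. S100A9, which was less than 2-fold higher, measured 7814 and 8605 FPKM, and SPRR3 was listed at 0 in siNT and 9.17 in siPAX9. Values of SPRR genes, which are close paralogs, are uncertain because counting could divide reads between them. Over the 8 related lists together, 132 distinct genes were compared. Of them 14 were at least 2-fold higher, which is 10.6% against 7.26% of all compared genes, and 12 lower, which is 9.09% against 6.89%. The keratinocyte list held 8 of the 14, and the other 7 lists held 6 higher and 12 lower of 123. Outside the keratinocyte list, CREB5, NR4A1, NR4A2, MAP2K6 and IL6 passed the minimum only through siNT and DUSP8 and HMOX1 only through siPAX9. The largest increase among the AP-1 genes was that of JUND, at 0.85 on the log2 scale.

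**Figure D4:**
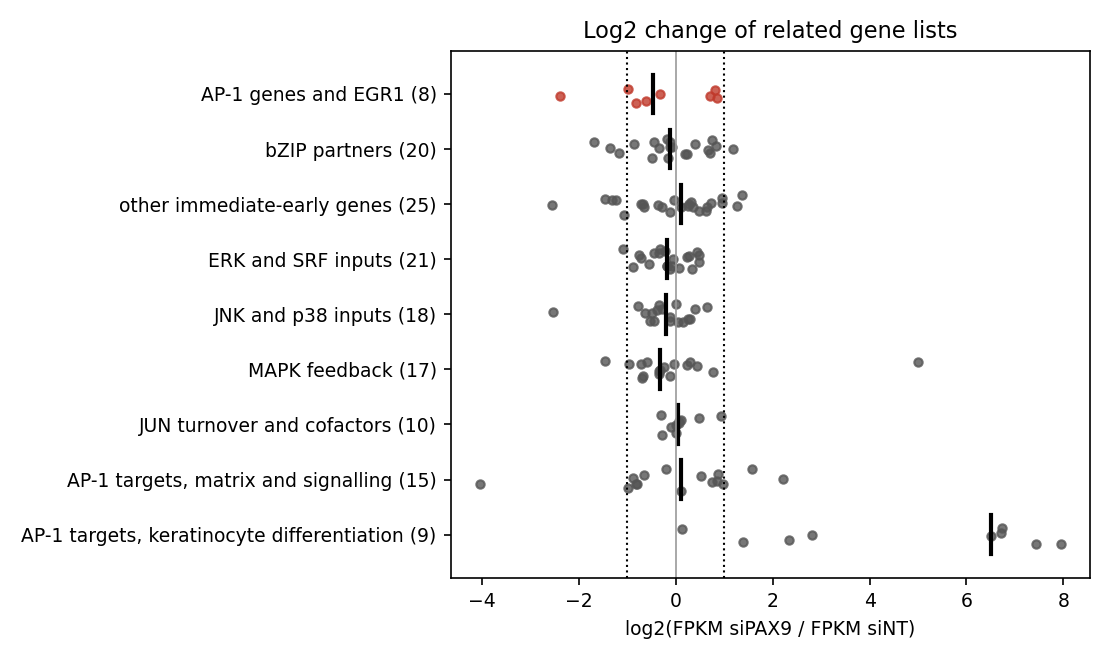
Log2 ratio of FPKM in siPAX9 to siNT for the 8 compared AP-1 genes and EGR1 (red) and for 8 related lists (grey), each point 1 gene, with the number compared in brackets, medians as black bars and dotted lines at 2-fold. The keratinocyte differentiation targets run from S100A9 at 0.14 to SPRR2A at 7.95, and 4 of the 9 passed the minimum only through siPAX9 (median 6.51 with and 2.34 without these 4), and the other 7 related lists have medians between -0.32 and 0.11.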

How the data were processed

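The data are poly(A)+ RNA-seq of MCF10A cells, 3 samples of siNT and 3 of siPAX9. According to the methods of the study and its submitters' processing notes, single-end reads were aligned to hg19 with Bowtie2 and quantified with Cufflinks in Partek. The authors' deposited table gives 1 FPKM per locus and group, and versions of Bowtie2 and Cufflinks, and the scaling between libraries, are not given in the sources used here. The table's columns of fold change, test statistic, p and q hold the authors' own comparison and were not used. Because each group has 1 value, there is no error, test or leave-one-out value, and depth per sample is not in the table.

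The log2 ratio of siPAX9 to siNT was computed without a pseudocount, for genes whose larger value reached 1 FPKM. Genes named were all members and, in each list, up to 4 genes with the largest ratio past 2-fold, plus genes whose role bears on a member. CTGF, NR4A2, MCL1 and the list genes named with ratios under 2-fold were chosen after their values were seen. A few genes of the lists are not reported here by name. Members and lists were chosen with earlier results of these data known. Bases before a start were counted from 1 next to it. Gene structure came from GENCODE 44 placed on GRCh37, upstream sequences from RefSeq GRCh38.p14 (first entry per symbol). Ratios and motif searches were tested on simulated data. Python 3.11.15, numpy 2.4.6, pandas 2.3.3 and matplotlib 3.10.9 were used.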

Additional observations from a re-analysis of the deposited data

How the results depend on the processing

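No paired analysis was possible because the table holds 1 value per group, and for the same reason no replicate could be left out. No member changed direction under any alternative. With 1 added to each FPKM, with a minimum FPKM of 5, with one of 10 (chosen after seeing the data) or without BATF3, 0 members were at least 2-fold lower. At a fold of 1.5, 3 were higher and 4 lower. That lower count was 3 with 1 added, after centring or with the rows of a symbol summed, because FOSL1 then fell short of 1.5-fold, and 3 with a minimum of 5 or 10 or without BATF3. Without a minimum the higher count was 4, FOSB being the addition. The members' median log2 ratio was -0.45 with 1 added to each FPKM, -0.32 without a minimum, with a minimum of 5 or 10 or without BATF3, -0.40 after centring and -0.43 with the rows of a symbol summed. PAX9 moved to -1.52 with 1 added and to -3.04 after centring. With the main settings, of the 132 genes compared in the 8 related lists, 14 were at least 2-fold higher (8 of them in the keratinocyte list) and 12 lower. The higher count was 22 without a minimum, 30 at a fold of 1.5 and 9 at a fold of 4. The lower count was 6 with a minimum of 5 or 10, 30 at a fold of 1.5 and 3 at a fold of 4. The share of all compared genes past the fold in either direction also moved, from 14.2% to 9.02% with 1 added, 21.9% without a minimum, 11.0% with a minimum of 5, 10.3% with one of 10, 31.1% at a fold of 1.5 and 4.04% at a fold of 4. Without values per sample, a ratio such as that of FOS, JUN or EGR1 cannot be set against the spread between cultures, and the low FPKM of BATF3 and FOSB limits what their ratios show.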
